A study of Oryctolagus cuniculus with 12 samples.

Results

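The genes described here encode the hemidesmosome and the dermal-epidermal junction, the structure that ties the epidermis to the dermis. They were chosen by symbol from a list of 9 names: COL7A1, COL17A1, LAMA3, LAMB3, ITGA3, ITGA6, ITGB4, DST and PLEC. Of these, 7 had a row in the table of 29587 genes, of which 14494 carried a symbol. COL7A1 and PLEC matched no symbol. A row without a symbol is described in the table as Collagen alpha-1(VII) chain and another as Plectin. These rows were found after the table had been seen, and they are reported apart from the 7 genes.

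RNA-seq was performed on full thickness tissue of rabbit ears in 4 groups of 3 samples, all of WT genotype and harvested on day 43. The rabbits were female and 10 to 12 weeks old. NS was normal ear skin with no wound and no treatment, and HS was hypertrophic scar without treatment, grown after the epidermis, dermis and perichondrium had been cut from the ventral side of the ear. In the drug-loaded MNs group, each scar received 1 patch of separating microneedles, whose tips of gelatin methacryloyl carry a prodrug of 5-fluorouracil and stay in the lesion. In the 5-Fu injection group, each scar received 0.1 mL of 5-Fu solution with a dose of 120 μg. Both treatments were given on days 22, 29 and 36. Each group came from 3 rabbits, but the labels do not say which rabbit gave which sample, so the p-values measure the spread between these samples. The full thickness of the ear holds the epidermis and dermis of both sides and the cartilage between them, and the wound was made on 1 side.

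In a hemidesmosome, the basal keratinocyte is held by integrin alpha-6 beta-4 and by collagen XVII, both of which cross the cell membrane. Inside the cell, plectin and the epithelial form of dystonin (BP230) link these receptors to keratin filaments. Outside, the receptors reach laminin-332, a trimer of the basement membrane that holds the products of LAMA3 and LAMB3. Anchoring fibrils of collagen VII fix that membrane to the dermis. Inherited loss of these proteins causes the blistering disease epidermolysis bullosa.

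Expression was measured as FPKM, the fragments on a gene per kilobase of its length and unit of library size. Comparisons between genes rest on that gene length, and comparisons between samples on that library size. The deposited FPKM values carried a scaling between samples, described below. Reads on genes, counted back from these values, ranged from 10521472 to 14043667 per sample. The 7 genes were deeply covered: the fewest reads in a sample were 277 for LAMB3 and the most were 10568 for COL17A1. Some libraries stood apart from their group. HS replicate 1 had a far higher value of the collagen VII row than any other sample. 5-Fu injection replicate 2 had summed FPKM of fibroblast markers of 26796, against 5058 and 6755 in replicates 1 and 3. NS replicate 3 had summed FPKM of skeletal muscle markers of 553, against 149 and 109 in replicates 1 and 2. Drug-loaded MNs replicate 3 had summed FPKM of basal keratinocyte markers of 1575, against 631 and 753 in replicates 1 and 2, and of suprabasal keratinocyte markers of 7644, against 3253 and 3462. 5-Fu injection replicate 3 had a basal marker sum of 1410, against 644 and 705, and 5-Fu injection replicate 1 a suprabasal marker sum of 4963, against 2284 and 2106. The 7 cartilage markers varied within groups, from 1480 to 3084 in NS, 462 to 4703 in HS, 816 to 4776 with drug-loaded MNs and 453 to 5284 with 5-Fu injection, highest in HS replicate 3, drug-loaded MNs replicate 3 and 5-Fu injection replicate 1. NS replicate 2 had summed FPKM of immune markers of 274, against 90.4 and 59.3 in replicates 1 and 3, and of hair follicle and sebaceous gland markers of 51.6, against 374 and 367. HS replicate 1 had a sum of 70.04 for the hair follicle and sebaceous gland markers, against 643 and 923 in replicates 2 and 3. The part of these cell types in the results that change without these libraries was not tested. Bulk values do not separate fewer cells of a type from less RNA per cell.

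**Figure D1:**
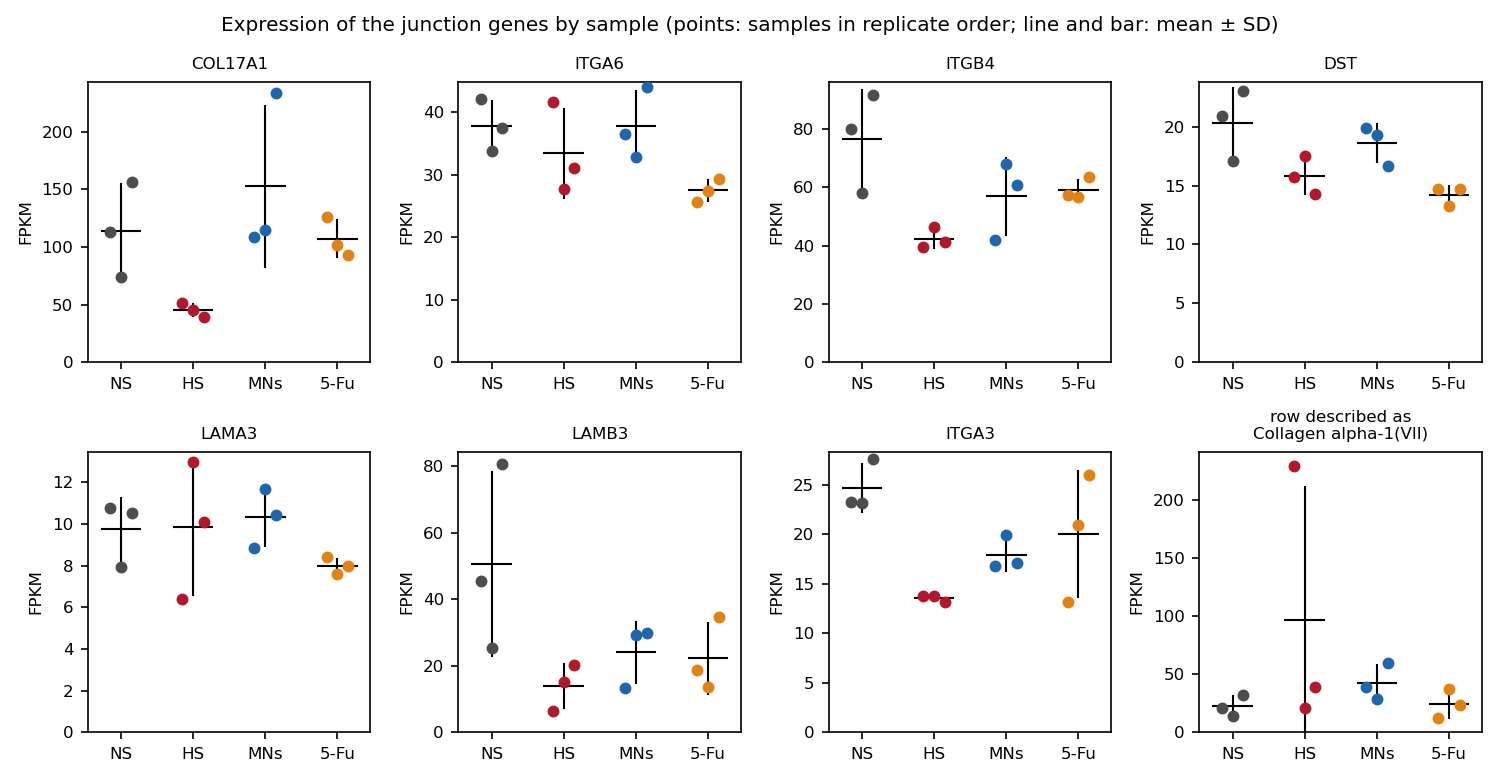
FPKM (vertical axes, each from 0) of the 7 junction genes and of the row described as collagen VII in each sample of the 4 groups. Points are samples in replicate order, and the line and bar are the mean ± SD (n = 3). COL17A1 in HS lies between 39.5 and 51.6, below all samples of the other groups, whereas the LAMA3 values of HS overlap with those of each other group.

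The transmembrane collagen COL17A1 (collagen XVII, ENSOCUG00000003049, chromosome 18, 51948282 to 51989350, minus strand, in a genome build that the sources used here do not name) had the highest mean FPKM of the 7 genes over all samples. In NS its FPKM was 113, 73.5 and 156, and in HS it was 51.6, 45.0 and 39.5. In HS replicates 2 and 3, ITGB4 was higher, at 46.4 and 41.3. After treatment, COL17A1 was 109, 115 and 234 with drug-loaded MNs and 126, 102 and 93.1 with 5-Fu injection. The HS samples lay below every sample of the other 3 groups, while NS and both treated groups overlapped. Group means were 114 ± 41.4 in NS, 45.4 ± 6.06 in HS, 152 ± 70.5 with drug-loaded MNs and 107 ± 16.9 with 5-Fu injection (SD, n = 3 each).

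Groups were compared with limma on log2(FPKM + 1), and a gene was called a DEG at a Benjamini-Hochberg adjusted p under 0.05 over the 13287 tested genes and an absolute log2 fold change above 1. COL17A1 fell in HS relative to NS, with a log2 fold change of -1.25 (SE 0.32, limma adjusted p = 0.0357). It was the single DEG among the 7 genes in that comparison, in which 5% of all tested genes were called, and 1.48% of all tested genes were called as lower. This call held in 16 of 22 alternatives. With 1 of the 12 samples left out, it held in 7 fits, among them those without NS replicate 2 (-1.54, adjusted p = 0.0263) and without each treated sample, and was lost in 5. The adjusted p was 0.113 without NS replicate 1, 0.0995 without NS replicate 3, and 0.0755, 0.0946 and 0.114 without HS replicates 1, 2 and 3. It was also lost with no filter on low values (adjusted p = 0.0627), while the fold change over all settings stayed between -1.61 and -0.996.

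Relative to HS, COL17A1 was higher by 1.64 on the log2 scale with drug-loaded MNs (SE 0.32, unadjusted p = 0.000283, limma adjusted p = 0.188) and by 1.21 with 5-Fu injection (SE 0.32, limma adjusted p = 0.0534). Neither passed the adjusted threshold, although every treated sample lay above every HS sample. The same 3 HS samples served both comparisons. The value with 5-Fu injection passed in 6 of 22 alternatives, with an adjusted p of 0.0466 among genes of mean FPKM of at least 5, 0.0373 after rescaling to total reads and 0.039 by limma voom on the reads. It also passed without NS replicate 2 (0.0435), NS replicate 3 (0.0474) or drug-loaded MNs replicate 3 (0.0369). Without 5-Fu injection replicate 2, the library with high fibroblast markers, the fold change was 1.24 (adjusted p = 0.056). Against each other, the treatments differed by 0.43 in COL17A1 (95% interval -0.27 to 1.12, limma adjusted p = 0.533), and by 0.075 without drug-loaded MNs replicate 3.

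ITGB4 encodes the beta-4 chain of the hemidesmosomal integrin, with its long cytoplasmic tail that binds plectin (ENSOCUG00000014951, scaffold GL018845, 53693 to 78930, minus strand). Its FPKM was 80.2, 58.2 and 91.6 in NS and 39.6, 46.4 and 41.3 in HS. It was 41.8, 68.1 and 60.9 with drug-loaded MNs and 57.5, 56.8 and 63.4 with 5-Fu injection. All HS samples lay below all NS samples and all 5-Fu injection samples, and drug-loaded MNs replicate 1 fell within the HS range. ITGB4 was lower in HS than in NS by a log2 fold change of -0.82 (SE 0.20, limma adjusted p = 0.0323), which passed the adjusted p but not the fold threshold. Without NS replicate 2 it passed both (-1.001, adjusted p = 0.0235), but the adjusted p missed the threshold without NS replicate 1 (0.116) or 3 (0.0926), without HS replicate 1 (0.103), 2 (0.0669) or 3 (0.0946), and with the replicate block (0.052). Relative to HS, ITGB4 differed by 0.39 with drug-loaded MNs (limma adjusted p = 0.605; 0.59 without their replicate 1 and 0.25 without their replicate 2) and by 0.47 with 5-Fu injection (limma adjusted p = 0.166).

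ITGA6, which encodes the alpha-6 chain that pairs with beta-4 in hemidesmosomes and with beta-1 elsewhere (ENSOCUG00000000403, chromosome 7, 112142985 to 112222386, plus strand), had FPKM of 42.1, 33.8 and 37.4 in NS and 41.6, 27.7 and 31.0 in HS. It was 36.6, 32.8 and 44.0 with drug-loaded MNs and 25.6, 27.5 and 29.4 with 5-Fu injection. NS and HS overlapped, and their difference was -0.19 (95% interval -0.56 to 0.19, limma adjusted p = 0.552), and it moved to -0.35 when HS replicate 1 was left out, to -0.065 when HS replicate 2 was, and to -0.11 when NS replicate 1 was. The 5-Fu injection samples were the lowest group, below every NS and every drug-loaded MNs sample. The differences were -0.44 for 5-Fu injection against NS (limma adjusted p = 0.275) and 0.44 for drug-loaded MNs against 5-Fu injection (limma adjusted p = 0.294).

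The plakin DST (dystonin, ENSOCUG00000014074, chromosome 12, 46427156 to 46911948, minus strand) encodes BP230 as well as longer forms of nerve and muscle, and the FPKM value covers a gene length of 23845 bases without separating them. Its FPKM was 20.9, 17.1 and 23.0 in NS and 15.8, 17.5 and 14.2 in HS. It was 19.8, 19.3 and 16.7 with drug-loaded MNs and 14.7, 13.2 and 14.7 with 5-Fu injection. 5-Fu injection was the lowest group here as well, with no overlap with NS or with drug-loaded MNs. DST differed by -0.33 between HS and NS (unadjusted p = 0.0392, limma adjusted p = 0.187) and by -0.48 between 5-Fu injection and NS (unadjusted p = 0.0065, limma adjusted p = 0.205). Drug-loaded MNs exceeded 5-Fu injection by 0.36 (95% interval 0.05 to 0.68, limma adjusted p = 0.296). The 7 Schwann cell markers summed to FPKM of 421 to 1028 in NS and 132 to 217 in HS. With drug-loaded MNs they summed to 149 to 317 and with 5-Fu injection to 144 to 710, and their part in the DST values was not tested.

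LAMB3, the beta-3 chain of laminin-332 (ENSOCUG00000004013, chromosome 16, 63027278 to 63067291, plus strand), had FPKM of 45.6, 25.4 and 80.7 in NS and 6.42, 15.1 and 20.2 in HS. It was 13.2, 29.2 and 29.9 with drug-loaded MNs and 18.7, 13.7 and 34.6 with 5-Fu injection. All NS samples exceeded all HS samples, and both treated groups overlapped with HS and with NS. The difference between HS and NS was -1.77, the largest fold change of the 7 genes in that comparison, but the spread within groups was wide (SE 0.51, limma adjusted p = 0.0615). LAMB3 passed as a DEG in 3 of 22 alternatives, with a replicate block (adjusted p = 0.0291), without NS replicate 2 (-2.18, adjusted p = 0.0471) and after rescaling to total reads (-2.12, adjusted p = 0.0182), which moved the median of all tested genes to -0.33 and raised the DEGs among them from 665 to 1060. Relative to HS, it differed by 0.79 with drug-loaded MNs (limma adjusted p = 0.684) and by 0.67 with 5-Fu injection (limma adjusted p = 0.433). These values were 0.36 and 0.23 without HS replicate 1, and the second was 0.31 without 5-Fu injection replicate 3.

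LAMA3, the alpha-3 chain (ENSOCUG00000009869, chromosome 9, 64876399 to 65127988, plus strand), had the lowest mean FPKM of the 7 genes. Its FPKM was 10.8, 7.94 and 10.5 in NS and 6.41, 13.0 and 10.1 in HS. It was 8.83, 11.7 and 10.4 with drug-loaded MNs and 8.40, 7.62 and 7.98 with 5-Fu injection. Normal skin and scar overlapped throughout, with a difference of -0.02 (95% interval -0.51 to 0.46, limma adjusted p = 0.964). Its sign turned without NS replicate 1 (0.05), NS replicate 3 (0.03) or HS replicate 1 (0.23).

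ITGA3 encodes the alpha-3 chain that pairs with beta-1 into a second keratinocyte receptor for laminin-332, placed outside the hemidesmosome (ENSOCUG00000009990, chromosome 19, 37569515 to 37598973, minus strand). Its FPKM was 23.3, 23.1 and 27.6 in NS and 13.8, 13.7 and 13.1 in HS, the narrowest of its 4 groups. It was 16.7, 19.9 and 17.0 with drug-loaded MNs, and 13.2, 20.9 and 26.0 with 5-Fu injection. HS lay below NS and below drug-loaded MNs without overlap, and 5-Fu injection spanned the range from HS to NS. ITGA3 was lower in HS than in NS by a log2 fold change of -0.82 (SE 0.20, limma adjusted p = 0.0348), past the adjusted p but not the fold threshold. The adjusted p missed the threshold without any single NS or HS replicate (0.0719 to 0.101) and with no filter on low values (0.0547). Drug-loaded MNs differed from HS by 0.38 (limma adjusted p = 0.627) and from NS by -0.44 (limma adjusted p = 0.397). 5-Fu injection differed from HS by 0.48 (limma adjusted p = 0.164), by 0.74 without its replicate 1 (adjusted p = 0.0641), by 0.43 without its replicate 2 (adjusted p = 0.252) and by 0.28 without its replicate 3 (adjusted p = 0.436).

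The row described as Collagen alpha-1(VII) chain (ENSOCUG00000012349, chromosome 9, 16262114 to 16293855, minus strand) had FPKM of 21.2, 14.5 and 32.5 in NS and 229, 20.9 and 38.9 in HS. It was 39.2, 29.0 and 59.9 with drug-loaded MNs and 12.1, 37.0 and 24.0 with 5-Fu injection. HS replicate 1 alone carried the high value, and all 4 groups overlapped. Its difference between HS and NS was 1.38 (SE 0.72, limma adjusted p = 0.286). The same sample had the lowest LAMA3 and LAMB3 and the highest ITGA6 of the HS group. The row described as Plectin (ENSOCUG00000033199, scaffold GL019690, 3590 to 6589, minus strand) had a gene length of 804 bases, and its FPKM ranged from 15.8 in 5-Fu injection replicate 3 to 53.8 in drug-loaded MNs replicate 2. Its groups of NS and HS overlapped, with a difference of 0.20 (limma adjusted p = 0.742).

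**Figure D2:**
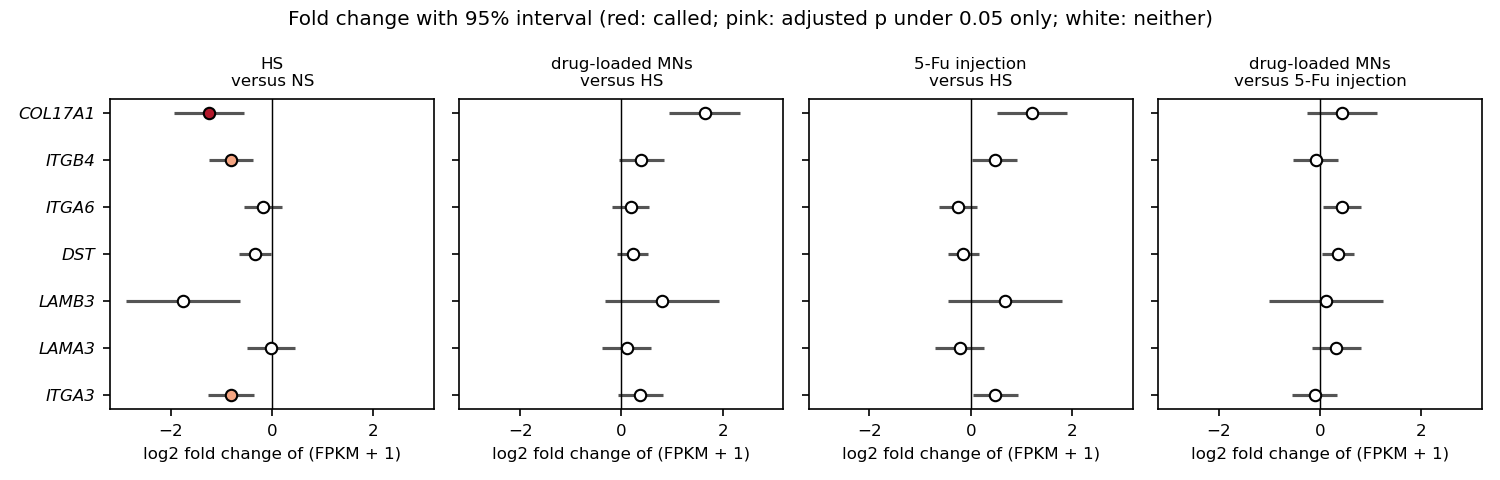
Log2 fold change of (FPKM + 1) for the 7 junction genes (horizontal axes) with 95% intervals from limma in 4 comparisons. Red marks a DEG, pink an adjusted p under 0.05 alone and white neither. COL17A1 is the DEG in HS versus NS at -1.25, with ITGB4 and ITGA3 in pink at -0.82, and the point of COL17A1 lies at 1.64 and 1.21 in the treated groups versus HS.

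HS and NS were compared to describe the untreated scar. All 7 genes had a fitted value below 0, a direction that LAMA3 lost without any of 3 replicates as given above, and the median log2 fold change was -0.82 against -0.01 over all tested genes. COL17A1 was a DEG, and COL17A1, ITGB4 and ITGA3 (3 of 7) passed the adjusted p alone, at which 2.21% of all tested genes were lower and 7.45% differed in either direction. With 1 of the 12 samples left out, the adjusted p was missed in 5 fits for COL17A1, 5 for ITGB4 and 6 for ITGA3, each time without an NS or HS sample. An unadjusted p under 0.05 was reached by 5 of 7, all lower, against 10.2% of tested genes lower at that p. HS lay below NS without overlap for 4 of 7 (COL17A1, ITGB4, LAMB3 and ITGA3), against 15.3% of tested genes. The deposited FPKM already carried a scaling between samples, whose library size exceeded the counted reads in NS (ratio 1.12 to 1.20) and fell short of them in HS (ratio 0.873 to 0.932). Rescaling to the total reads, with its median of -0.33 over all tested genes, made DEGs of 4 of 7 genes, with COL17A1 at -1.61, LAMB3 at -2.12, ITGB4 at -1.17 and ITGA3 at -1.16.

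Drug-loaded MNs and HS were compared to describe the treated scar. All 7 genes had a fitted value above 0, which for LAMA3 turned to -0.15 without HS replicate 1, and the median was 0.38 against -0.02 over all tested genes. By limma, 0 of 7 were DEGs, where 0.00753% of tested genes were called. COL17A1 was the 1 gene of 7 with an unadjusted p under 0.05, against 4.78% of tested genes higher at that p. Limma voom on the reads called 0 of 7 as well. COL17A1 and ITGA3 lay above HS without overlap, against 8.53% of tested genes.

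After 5-Fu injection relative to HS, 4 of 7 genes had a fitted value above 0 (COL17A1, LAMB3, ITGA3 and ITGB4) and 3 below (ITGA6, DST and LAMA3). The median was 0.47 against 0.02 over all tested genes. By limma, 0 of 7 were DEGs, where 2.29% of tested genes were called, 0.512% as higher. Limma voom called COL17A1. An unadjusted p under 0.05 was reached by COL17A1, ITGA3 and ITGB4 (3 of 7), against 11.6% of tested genes higher at that p. COL17A1 and ITGB4 lay above HS without overlap, against 13.9% of tested genes.

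Between the treatments, 0 of 7 genes and 0% of all tested genes were DEGs by limma, and limma voom called 0 of 7. ITGA6 and DST reached an unadjusted p under 0.05, both higher with drug-loaded MNs, against 8.15% of tested genes higher at that p. ITGA6, DST and LAMA3 lay higher with drug-loaded MNs without overlap, against 8.64% of tested genes. LAMA3 differed by 0.32 (95% interval -0.16 to 0.81, limma adjusted p = 0.497). The other genes differed by 0.12 for LAMB3, -0.11 for ITGA3 and -0.08 for ITGB4. These 3 signs turned without single replicates, and that of ITGB4 with quantile normalization as well.

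Relative to NS, 0 of 7 genes were DEGs by limma in either treated group, where 0.873% of tested genes were called with drug-loaded MNs and 0.00753% with 5-Fu injection. By limma voom, 0 of 7 were called in either. With drug-loaded MNs, 0 of 7 had an unadjusted p under 0.05, against 12.9% of tested genes, and ITGA3 lay below NS without overlap, against 9.11% of tested genes. LAMB3 differed by -0.97 (95% interval -2.10 to 0.15, limma adjusted p = 0.459) with drug-loaded MNs and by -1.10 (95% interval -2.23 to 0.03, limma adjusted p = 0.346) with 5-Fu injection. Without NS replicate 3 these values were -0.57 and -0.69, and without drug-loaded MNs replicate 1 the first was -0.61. With 5-Fu injection, all 7 fitted values were below 0, although that of COL17A1, at -0.04, turned to 0.22 without NS replicate 3 and to 0.05 without 5-Fu injection replicate 3. DST and ITGA6 had an unadjusted p under 0.05, against 6.98% of tested genes lower at that p, and both lay below NS without overlap, against 9.16% of tested genes.

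The order of the group means also differed between genes. COL17A1 was highest with drug-loaded MNs, followed by NS, 5-Fu injection and HS, and its highest mean was 3.36 times its lowest. In that order only the last neighbours, 5-Fu injection and HS, did not overlap. The first place rested on drug-loaded MNs replicate 3, without which the mean of that group was 112, below the 114 of NS. LAMB3 ran from NS through drug-loaded MNs and 5-Fu injection to HS over a range of 3.63 times, with every pair of neighbours overlapping. ITGA3 and ITGB4 ran from NS through 5-Fu injection and drug-loaded MNs to HS, over 1.82 and 1.81 times, and for ITGA3 the samples of drug-loaded MNs and HS were apart. LAMA3, ITGA6 and DST had their lowest mean with 5-Fu injection, over ranges of 1.29, 1.38 and 1.43 times, and all of their neighbours overlapped.

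Because the encoded chains work in complexes, ratios of FPKM were taken within each sample. The pairs were chosen after the values had been seen, so the ratios are given as a description without a test. ITGB4 per ITGA6 was 2.02 ± 0.376 in NS and 1.32 ± 0.362 in HS, and these groups did not overlap (1.72 to 2.45 against 0.951 to 1.67). It was 1.53 ± 0.484 with drug-loaded MNs and 2.16 ± 0.0876 with 5-Fu injection. The 5-Fu injection ratio lay in the NS range, with ITGB4 below and ITGA6 below their NS means.

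LAMB3 per LAMA3 was 5.03 ± 2.34 in NS and 1.39 ± 0.536 in HS, again without overlap (3.203 to 7.67 against 1.00 to 2.00). It was 2.29 ± 0.708 with drug-loaded MNs and 2.78 ± 1.36 with 5-Fu injection. Of these 4 chains, ITGB4 and LAMB3 lay lower in HS without overlap and ITGA6 and LAMA3 overlapped; none of the 4 was a DEG, and the difference between beta and alpha chains was not tested. ITGA3 per ITGB1, its partner chain, was 0.143 ± 0.0131 in NS, 0.0464 ± 0.00958 in HS, 0.0867 ± 0.0165 with drug-loaded MNs and 0.103 ± 0.0411 with 5-Fu injection, and HS lay below each other group without overlap. ITGB1 is made by most cells of the tissue and its FPKM was 175 ± 35.6 in NS and 300 ± 61.3 in HS, with a fold change of 0.77 (limma adjusted p = 0.0366) that did not pass the fold threshold.

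COL17A1 per ITGB4 was 1.46 ± 0.226 in NS, 1.08 ± 0.198 in HS, 2.71 ± 1.08 with drug-loaded MNs and 1.82 ± 0.361 with 5-Fu injection. Both treated groups lay above HS without overlap in this ratio, whose HS range was 0.957 to 1.31. COL17A1 per DST was 5.50 ± 1.25 in NS, 2.87 ± 0.365 in HS, 8.48 ± 4.80 with drug-loaded MNs and 7.52 ± 1.12 with 5-Fu injection. In each treated group COL17A1 therefore stood higher relative to these hemidesmosome partners than in HS.

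**Figure D3:**
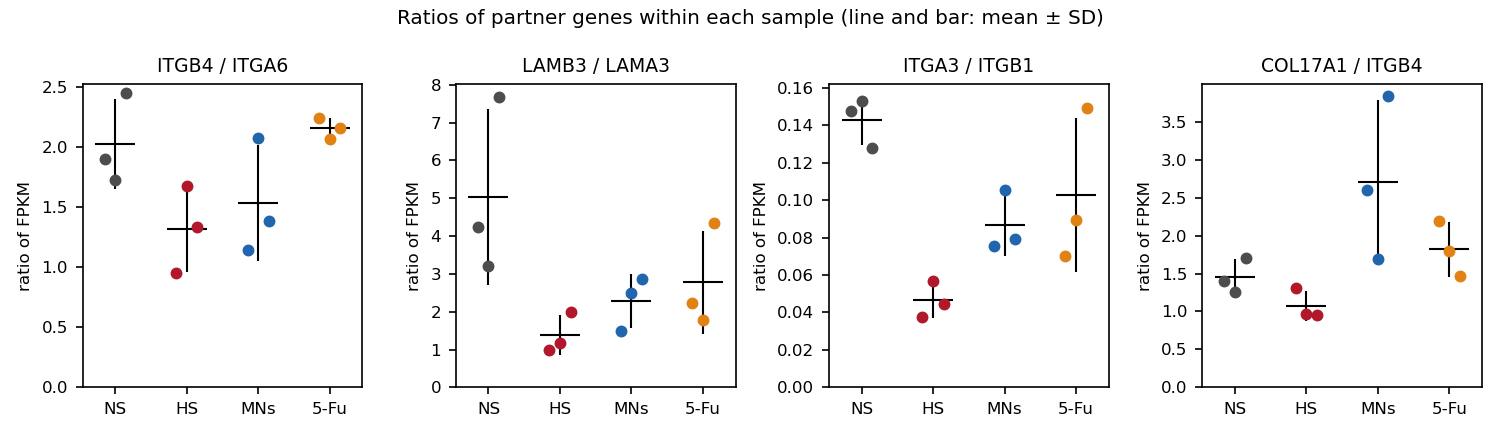
Ratio of FPKM within each sample (vertical axes, from 0) for ITGB4 to ITGA6, LAMB3 to LAMA3, ITGA3 to ITGB1 and COL17A1 to ITGB4, by group. Points are samples in replicate order, and the line and bar are the mean ± SD (n = 3). HS lies below NS without overlap in the first 3 ratios, and below both treated groups without overlap in the COL17A1 to ITGB4 ratio.

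Among markers of basal keratinocytes, the cells that build hemidesmosomes, the keratins KRT5 and KRT15 were lower in HS than in NS. Of 7 listed markers 4 had a row (KRT5, KRT15, TP63 and CDH3), while KRT14, DSG3 and SFN matched no symbol. Their summed FPKM, most of it from both keratins, was 842 to 980.4 in NS and 345 to 383 in HS. With drug-loaded MNs it was 631 to 1575 and with 5-Fu injection 644 to 1410. KRT5 and KRT15 were DEGs in HS versus NS (2 of 4, against 1.48% of all tested genes called lower), KRT5 with a mean FPKM of 584 in NS and 230 in HS (-1.34, limma adjusted p = 0.042) and KRT15 with 315 and 107 (-1.55, limma adjusted p = 0.0248), calls that held in 14 and 16 of 22 alternatives. The transcription factor TP63 (-0.53, limma adjusted p = 0.423) was not a DEG. CDH3, or P-cadherin, was not one either and had the higher mean in HS (10.1 in NS and 15.6 in HS, 0.61, limma adjusted p = 0.498), with a value of -0.36 after 5-Fu injection relative to HS. KRT15 was also a DEG after 5-Fu injection relative to HS (1.49, limma adjusted p = 0.0426, where 0.512% of all tested genes were called higher), a call that held in 10 of 22 alternatives. KRT5 was not one there (1.20, limma adjusted p = 0.0707). Neither keratin was a DEG with drug-loaded MNs relative to HS, at 1.52 for KRT15 and 1.28 for KRT5 (limma adjusted p = 0.239 and 0.31). The part of basal cell number in the values of the 7 genes was not tested.

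Measured against the mean log2(FPKM + 1) of the 4 basal markers in the same sample, ITGB4 stood at -0.08 ± 0.29 in NS and -0.20 ± 0.13 in HS, and ITGA3 at -1.66 ± 0.13 in NS and -1.77 ± 0.11 in HS, each with overlap. LAMB3 stood at -0.80 ± 0.78 in NS and -1.87 ± 0.71 in HS, also with overlap. COL17A1 stood at 0.44 ± 0.50 in NS and -0.11 ± 0.27 in HS, with overlap (-0.06 to 0.94 against -0.38 to 0.16). LAMA3 stood at -2.92 ± 0.17 in NS and -2.25 ± 0.42 in HS, ITGA6 at -1.07 ± 0.10 and -0.55 ± 0.35, and DST at -1.93 ± 0.17 and -1.57 ± 0.20. HS lay above NS without overlap for LAMA3 and ITGA6 and overlapped with it for DST. The marker mean itself was 6.28 to 6.38 in NS and 5.56 to 5.72 in HS. It was 5.97 to 7.31 with drug-loaded MNs and 5.89 to 6.70 with 5-Fu injection. A gene with little change therefore stands higher in HS than in each other group on this scale. The share of all tested genes that do so was not computed. On this scale COL17A1 was 0.63 ± 0.16 with drug-loaded MNs, above HS without overlap, and 0.47 ± 0.62 with 5-Fu injection. The other 6 genes had lower means with drug-loaded MNs than in HS, each with overlap. These were -0.71 ± 0.59 for ITGB4, -1.27 ± 0.54 for ITGA6, -2.30 ± 0.73 for ITGA3, -2.25 ± 0.82 for DST, -3.04 ± 0.65 for LAMA3 and -1.97 ± 0.50 for LAMB3. Each of the 6 was lowest in drug-loaded MNs replicate 3, the library with high basal markers. LAMB3 was -2.365 in that replicate and -2.136 and -1.413 in replicates 1 and 2, which lay on both sides of the HS mean. ITGA3 was -3.138 there, against -1.816 and -1.944, and DST was -3.168, against -1.584 and -1.989. With 5-Fu injection, ITGA6 (-1.44 ± 0.31) and DST (-2.35 ± 0.41) lay below HS without overlap. ITGB4 (-0.36 ± 0.33), ITGA3 (-1.93 ± 0.15), LAMA3 (-3.11 ± 0.44) and LAMB3 (-1.83 ± 0.45) overlapped with it.

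Marker sums of other cell types also differed between groups. The 6 fibroblast markers with a row summed to 2469 to 3445 FPKM in NS, 37456 to 48774 in HS and 18949 to 27190 with drug-loaded MNs. The 7 endothelial markers summed to 302 to 373 in NS, 361 to 414 in HS, 335 to 411 with drug-loaded MNs and 427 to 464 with 5-Fu injection, where the sums lay above every NS and HS sample. After 5-Fu injection relative to HS, 0 of 7 were DEGs by limma, where 2.29% of all tested genes were called. At an unadjusted p under 0.05, 3 of 7 were higher, against 11.6% of all tested genes, and the list median was 0.08. The 4 suprabasal keratinocyte markers with a row (KRT1, KRT10, DSC1 and EVPL) summed to 1575 to 3064 in NS, 1052 to 1669 in HS, 3253 to 7644 with drug-loaded MNs and 2106 to 4963 with 5-Fu injection, and 0 of 4 were DEGs in HS versus NS by limma, with 2 lower at an unadjusted p under 0.05, against 10.2% of all tested genes. With drug-loaded MNs relative to HS, 0 of 4 were DEGs, 4 of 4 were higher at an unadjusted p under 0.05 and without overlap (against 4.78% and 8.53% of all tested genes), and their median was 1.59. The part of these cell types in the junction values was not tested.

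Further genes of the junction were taken from lists, chosen with earlier results of these data known. A list of 6 genes was taken for partners of the hemidesmosome and of laminin-332. Of these, 5 had a row (ITGB1, LAD1, FERMT1, KLHL24 and DSP), and CD151 matched no symbol. DSP encodes desmoplakin, a desmosome protein, and it enters the counts and medians of this list. LAD1, which encodes ladinin, a protein of the basement membrane zone, was lower in HS than in NS, with a mean FPKM of 27.5 ± 4.75 against 60.8 ± 12.0 (-1.11, SE 0.19, limma adjusted p = 0.00598). It was the 1 DEG of 5, where 1.48% of all tested genes were called lower, and it remained one in 21 of 22 alternatives. LAD1 was 54.4 ± 6.57 with drug-loaded MNs and 45.8 ± 5.66 with 5-Fu injection, 0.97 and 0.72 above HS (limma adjusted p = 0.188 and 0.0527), and it did not overlap with HS in either. The 5 listed genes had a median of -0.49 in HS versus NS, 0.69 with drug-loaded MNs versus HS and 0.28 with 5-Fu injection versus HS. In the treated groups versus HS 0 of 5 were DEGs, where 0.00753% of all tested genes were called with drug-loaded MNs and 2.29% with 5-Fu injection.

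Proteins of the basement membrane sheet itself were listed apart. Of 20 listed genes 17 had a row and 15 were tested, and in HS versus NS 11 had a fitted value above 0 and 4 below, with a list median of 0.94. DEGs were 5, all higher. As background, 3.53% of all tested genes were called higher. NID1, encoding nidogen, which links laminin to collagen IV, had a mean FPKM of 94.6 ± 25.8 in HS against 20.1 ± 4.49 in NS (2.17, limma adjusted p = 0.00577). The laminin chains LAMB1 (98.8 ± 5.38 against 32.4 ± 6.38, 1.60, limma adjusted p = 0.00948) and LAMA4 (74.2 ± 8.06 against 35.1 ± 3.80, 1.06, limma adjusted p = 0.012) were also DEGs. The remaining 2 were the proteoglycan HSPG2, or perlecan (1.20, limma adjusted p = 0.0241), and NID2 (1.04, limma adjusted p = 0.0138). The calls of NID1 and LAMB1 held in 22 of 22 alternatives, and those of LAMA4, NID2 and HSPG2 in 19, 18 and 16. The 4 with a lower fitted value in HS were the collagen IV chains COL4A6 (-0.92, unadjusted p = 0.0362), COL4A4 (-0.58, unadjusted p = 0.0372) and COL4A5 (-0.53) and the matrix protein TINAGL1 (-0.19), none with an adjusted p under 0.05. COL4A4 passed the filter through NS (1.97) and drug-loaded MNs (1.48), the groups where its mean FPKM was high. Its mean was under the filter's value in HS (0.978) and with 5-Fu injection (0.996), so no conclusion is drawn from its p-value. Proteins of the sheet are made by fibroblasts, vessels and nerves as well as by the epidermis. The count was 2 after rescaling to total reads, 2 without NS replicate 2 and 3 without HS replicate 1 or HS replicate 2.

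After 5-Fu injection relative to HS, NID1 (34.7 ± 18.9, -1.53, limma adjusted p = 0.0417) and HSPG2 (103 ± 46.4, -1.12, limma adjusted p = 0.0456) were DEGs of the sheet list, both lower, where 1.78% of all tested genes were called lower, with a list median of -0.67. At an unadjusted p under 0.05, 6 of 15 were lower and 1 higher, against 14.4% and 11.6% of all tested genes. These calls held in 10 and 7 of 22 alternatives. With drug-loaded MNs relative to HS, 0 of 15 were DEGs by limma, with 2 lower and 0 higher at an unadjusted p under 0.05, against 4.12% of all tested genes lower and 4.78% higher at that p, and the median was -0.37.

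Enzymes and carriers that process collagens and laminins were listed as well. Of 10, 7 had a row and 6 were tested, and 4 were DEGs in HS versus NS, all higher, where 3.53% of all tested genes were called higher. BMP1, a protease that trims procollagens and laminin-332, had a mean FPKM of 178 ± 50.6 in HS against 48.9 ± 8.36 in NS (1.82, limma adjusted p = 0.00523). PCOLCE, which enhances that protease, had 550 ± 29.5 against 83.2 ± 23.0 (2.74, limma adjusted p = 0.00152). ADAM9, one of the proteases able to shed collagen XVII from the membrane, had 56.1 ± 8.43 against 21.0 ± 4.01 (1.38, limma adjusted p = 0.0045), and ADAM17 and ADAM10, others of that kind, were not DEGs at -0.10 and 0.44. P4HA1, a prolyl hydroxylase subunit, was the fourth (1.33, limma adjusted p = 0.0198), with a call that held in 17 of 22 alternatives and in 22 for the other 3. After 5-Fu injection and after drug-loaded MNs relative to HS, 0 of 6 were DEGs by limma, with 4 and 2 lower at an unadjusted p under 0.05, against 14.4% and 4.12% of all tested genes. Relative to NS, PCOLCE remained higher with drug-loaded MNs (2.22, limma adjusted p = 0.0208), a call that held in 16 of 22 alternatives. It was the 1 DEG of 6, where 0.873% of all tested genes were called. BMP1 (1.22) and ADAM9 (0.90) did not pass in that comparison (limma adjusted p = 0.0958 for both). PCOLCE did not pass with 5-Fu injection relative to NS (1.47, limma adjusted p = 0.139).

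The genes of the FRAS and FREM proteins, which bind epidermis to dermis during development, were listed together with GRIP1 and VWA2. All 6 genes of this list had a row, and 2 passed the filter, FREM1 and VWA2. FREM1 passed it through its levels in HS and with drug-loaded MNs (2.25 ± 0.483), the groups where it was high, and its mean was under the filter's value in NS and with 5-Fu injection. FREM1 was a DEG in HS versus NS, at 3.73 ± 1.23 against 0.350 ± 0.154 FPKM (1.78 on the log2(FPKM + 1) scale, which understates the change of a low gene, limma adjusted p = 0.0045), and, in the lower direction, after 5-Fu injection relative to HS (-1.43, limma adjusted p = 0.028), calls that held in 21 and 14 of 22 alternatives. Of all tested genes, 3.53% were called higher in the first comparison and 1.78% lower in the second. Because FREM1 passed the filter through the groups where it was high, no conclusion is drawn from these calls or their p-values. Of the 6 receptors for the basement membrane with a row, 0 were DEGs in HS versus NS by limma, with 2 higher and 1 lower at an unadjusted p under 0.05, against 13.2% and 10.2% of all tested genes. ITGAV, the alpha-v integrin chain, was a DEG after 5-Fu injection relative to HS (7.24 ± 2.10 against 16.4 ± 0.329, -1.11, limma adjusted p = 0.0272), which held in 14 of 22 alternatives. It was the 1 DEG of 6 there, where 1.78% of all tested genes were called lower. DAG1, dystroglycan, differed by -0.01 between HS and NS (limma adjusted p = 0.989). For 5-Fu injection it differed by -0.55 from HS (limma adjusted p = 0.0962) and by -0.56 from NS (limma adjusted p = 0.232). ITGAV and DAG1 were the 2 of 6 receptors lower than in HS at an unadjusted p under 0.05 after 5-Fu injection, against 14.4% of all tested genes.

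**Figure D4:**
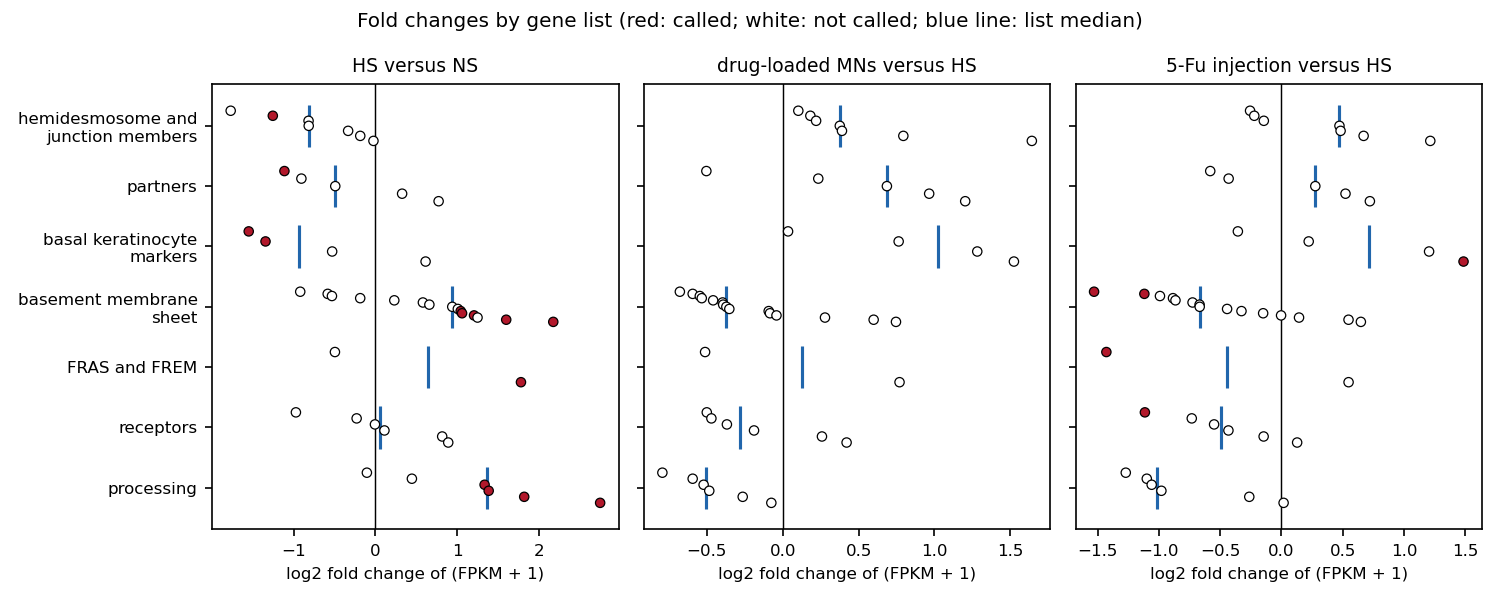
Log2 fold change of (FPKM + 1) (horizontal axes, each with its own range) for the tested genes of each list in HS versus NS, drug-loaded MNs versus HS and 5-Fu injection versus HS. Red points are DEGs, white points are not, and the blue line is the median of the list. In HS versus NS the junction genes have a median of -0.82 and the basement membrane sheet a median of 0.94.

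The 7 genes did not follow a single profile across the 12 samples. Over log2(FPKM + 1), Pearson's r was 0.891 between LAMB3 and ITGB4 (Spearman's rho 0.902) and 0.787 between ITGA3 and ITGB4 (0.783). It was 0.66 between COL17A1 and ITGB4 (0.671). By contrast, it was 0.166 between ITGA6 and its partner ITGB4 (0.245), and -0.0035 between LAMA3 and ITGA3 (0). LAMB3 and LAMA3 stood at 0.487, and at 0.707 after the group means were removed. The samples share the group differences, so these values are descriptions over 12 points in 4 groups.

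For each gene the most similar others were sought among 9449 genes with a symbol and a mean FPKM of at least 1. COL17A1 was nearest to LYPD3 (r = 0.939), GPX2 (0.936) and CSTA (0.925). LYPD3 and CSTA are expressed in stratified epithelium, the former as a surface protein and the latter as the cornified envelope component cystatin A. ITGB4 was nearest to CASQ2 (0.945), DAPK2 (0.912) and ARHGEF37 (0.905), and LAMB3 to NKX6-1 (0.927), IL17B (0.918) and CKM (0.914). CASQ2 and CKM encode proteins of striated muscle, calsequestrin and creatine kinase. The 6 skeletal muscle markers with a row summed to 109 to 553 FPKM in NS and 47.1 to 75.6 in HS, without overlap, and 0 of the 4 tested were DEGs in HS versus NS by limma, with 2 lower at an unadjusted p under 0.05 and 2 without overlap (against 10.2% and 15.3% of all tested genes) and a median of -1.66. Their part in the ITGB4 and LAMB3 values was not tested. The muscle markers and LAMB3 were both highest in NS replicate 3, and without that sample the difference in LAMB3 between HS and NS was -1.36 (adjusted p = 0.164).

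ITGA3 was nearest to ANKRD22 (0.935), MALL (0.902) and MBD1 (0.902), and LAMA3 to RNF13 (0.891), NIM1K (0.874) and SP6 (0.871), a transcription factor of teeth, hair and skin. DST was nearest to KLHL25 (0.888), EPN2 (0.886) and RXRG (0.884). ITGA6 had the weakest nearest genes, CHL1 (0.841), UBE4A (0.831) and CFAP157 (0.828). No gene was shared between these lists of nearest genes, and none of the 7 junction genes was among the nearest 3 of another.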

How the data were processed

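RNA-seq libraries of 12 samples were made from poly-T selected mRNA with a SMARTER kit and sequenced on an Illumina NovaSeq system. The deposited values are FPKM computed by the authors, in a single table that gives Ensembl identifiers, symbols, descriptions and coordinates. The aligner, the counting tool and the genome build are not given in the sources used here. Multiplied by gene length, 100% of values were whole multiples of a step per sample (tolerance 0.02), so reads were counted back, and the library size inside the deposited FPKM equalled median-of-ratios size factors. The authors tested counts with DESeq2, which was not used here.

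Groups came from the labels. The 7 genes were matched by symbol, each with 1 row, and all 7 passed the filter. The 13287 genes whose FPKM averaged 1 or more were compared in 1 limma 3.58.1 fit of all 4 groups (R 4.3.3) on log2(FPKM + 1), with a trended empirical Bayes prior, and p-values were adjusted by Benjamini-Hochberg separately for the 6 comparisons. Thresholds were those of the study. The fit was tested on simulated data, and the outcome is not reported here. Genes, lists and markers were chosen with earlier results of these data known. Genes named are the 7, the DEGs of the lists, the markers, and for each of the 7 the 3 genes of highest Pearson's r over the samples. ITGB1, FERMT1, KLHL24, DSP, GRIP1, VWA2, DAG1, ADAM17, ADAM10, COL4A4, COL4A5, COL4A6 and TINAGL1 were named after their values were seen. Alternatives changed the pseudocount (0.1), filter, normalization, scaling, samples in the fit, trend, call rule, replicate block and test (limma voom on reads), and left out each of 12 samples. Sequences were not used here, and 2 further genes of the partner and marker lists are not reported here.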

Additional observations from a re-analysis of the deposited data

Results flagged for a closer look

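DST lay on opposite sides of the HS mean in the samples of both treatments. Relative to the HS mean, all 3 drug-loaded MNs samples were higher and all 3 5-Fu injection samples were lower, and drug-loaded MNs exceeded 5-Fu injection by 0.36 on the log2(FPKM + 1) scale. In the direct comparison, limma's adjusted p was 0.296 (unadjusted p = 0.0273), so the difference did not pass the threshold, and the adjusted p ranged from 0.249 to 0.517 over the alternatives. Against HS itself, neither treatment passed and both overlapped with it (0.22 with drug-loaded MNs, limma adjusted p = 0.684, and -0.14 with 5-Fu injection, limma adjusted p = 0.557). The second value was -0.072 without HS replicate 2, -0.096 without 5-Fu injection replicate 2 and -0.014 after rescaling to total reads. ITGA6 (0.18 and -0.26) and LAMA3 (0.10 and -0.22) also had fitted values of opposite sign. Without single HS replicates, those of ITGA6 ran from 0.061 to 0.35 and from -0.38 to -0.092, and those of LAMA3 from -0.15 to 0.31 and from -0.47 to -0.014. Groups of 3 samples were not tested for single samples that stand apart.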

How the results depend on the processing

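Of the 7 genes, 1 was called in HS versus NS. That count was 0 with no filter on low values, 4 after rescaling to total reads, 3 by the adjusted p alone, 2 with the replicate block, and 0 to 3 with a replicate left out. In 5-Fu injection versus HS it was 0, and 1 with a mean FPKM of at least 5, after rescaling and by limma voom, and 0 to 1 with a replicate left out. The other comparisons stayed at 0 in every alternative run. The fold changes of the genes kept their sign except in 19 of 924 values, all of differences that were not called. Quantile normalization gave 0.0042 for ITGB4 in drug-loaded MNs versus 5-Fu injection, rescaling gave -0.12 for LAMA3 in drug-loaded MNs versus NS, and limma voom gave 0.0032 for ITGA6 in drug-loaded MNs versus NS.
With a replicate left out, values that turned sign ran from -0.23 to 0.23 for LAMA3 in HS versus NS and from -0.15 to 0.31 in drug-loaded MNs versus HS. In drug-loaded MNs versus 5-Fu injection they ran from -0.16 to 0.49 for LAMB3, from -0.37 to 0.10 for ITGA3 and from -0.22 to 0.12 for ITGB4. In drug-loaded MNs versus NS they ran from -0.0499 to 0.18 for LAMA3 and from -0.12 to 0.090 for ITGA6, and in 5-Fu injection versus NS from -0.32 to 0.22 for COL17A1. The causes were not tested.

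The deviations of same-numbered samples had correlations of -0.27 to 0.44 over the 6 comparisons, highest for replicate 2 of drug-loaded MNs and HS. Their sign varied, and the replicate numbers were not read as pairs. With the replicate block, LAMB3 became a DEG in HS versus NS beside COL17A1, and the count over all tested genes in 5-Fu injection versus HS was 99 in place of 304. Over all tested genes that count was also 0 with only the 2 groups compared, 93 with no filter and 585 by the adjusted p alone, and 0 to 803 with a replicate left out. In HS versus NS it was 665, 1060 after rescaling and 382 to 749 with a replicate left out. In drug-loaded MNs versus NS it was 116, with 51 under no filter, 23 with the block and 0 to 176 with a replicate left out, and in drug-loaded MNs versus HS it was 1, with 37 when only the 2 groups were fitted and 0 to 2 in the other alternatives. It was 1 in 5-Fu injection versus NS and 0 between the treatments, with 0 to 20 and 0 to 12 when a replicate was left out. Groups of 3 samples limit what can be called. The fewest reads on any of the 7 genes in a sample were 277.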
